A study of Mus musculus with 8 samples.

Results

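The 40 genes described here encode enzymes of amino acid breakdown and of serine and glycine metabolism. They were chosen as a pathway list, and each was read from the probe set with the highest mean over all arrays. Of 22180 genes named by the array, 39 were members with a probe set of their own. The remaining member, Gstz1, shares its only probe set with another gene and was not analysed here. The members Kynu, Gcsh, Phgdh and Psph had means below the filter on dim genes, a log2 value of 6.64, so 35 members were tested.

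Kidneys of 8 mice aged 2 months were measured, with 1 array for each mouse. Of these mice 3 lacked both Col4a3 and osteopontin (Col4a3-/-OPN-/-, called double mutants), 3 lacked Col4a3 alone (Col4a3-/-, called single mutants) and 2 were wild type. The glomerular filter is built on type IV collagen, of which Col4a3 encodes a chain, and mice without it serve as a model of Alport syndrome, a hereditary kidney disease. Both mutant groups lack Col4a3. The labels used here give neither the strain nor the sex of the mice. All values are log2 expression values, so a positive difference means a higher level in the group named first. The small number of arrays limits how precise any value is.

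The sex of each mouse was read from the arrays. Xist, expressed from the inactive X chromosome, lay between 8.85 and 10.02 on 4 arrays and between 4.52 and 4.64 on the other 4. The mean of 3 Y-linked genes was at most 4.51 on the first 4 arrays and at least 7.01 on the others. Double mutants 1 and 2 and single mutants 1 and 3 were read as female. Double mutant 3, single mutant 2 and both wild type mice were read as male. Sex and genotype are therefore unbalanced, and each comparison was made with limma in a fit of genotype alone and in a fit of genotype with a term for sex. In the second fit the sex effect is estimated in the mutants and taken as equal in both. Array values are listed in the order of the replicate numbers. Differences of single genes from wild type given without naming a fit come from the fit with sex. They adjust female arrays by the estimated sex effect, so they can be larger than any gap between the listed values.

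The kidney, and above all its proximal tubule, takes up filtered amino acids and small peptides and breaks down, makes or interconverts many of them. Tyrosine is degraded in a chain in which Hpd, Hgd and, as the last enzyme, Fah take part, and tryptophan is degraded through kynurenine to the precursor of NAD. The glycine cleavage system and the serine hydroxymethyltransferases exchange carbon between glycine, serine and folate, and branched-chain amino acids are oxidized in mitochondria to acetyl-CoA and propionyl-CoA. The kidney also makes the creatine precursor guanidinoacetate through Gatm and releases serine and arginine into blood.

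The labelled tissue was checked against its markers. All 10 proximal tubule markers, such as the endocytic receptor Lrp2 and the phosphate carrier Slc34a1, passed the filter, as did 5 of 6 markers of the loop and distal tubule. None of 5 adrenal and 7 lymphocyte markers passed it, and of 6 liver markers Ttr and Apob passed it. The filter uses the mean of all arrays, and the lymphocyte markers Cd3e and Cd3g reached 7.32 and 7.04 in double mutant 1. Of 4 measured podocyte markers 2 passed it.

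Promoter windows are shown for 3 members. Shmt2 was the only member whose call in double mutants held under each alternative run in the fit with sex. Hpd had the largest difference between sexes. Prodh2 was among the 11 members called both lower in a mutant and higher in females, as were Shmt2 and Hpd. Each window runs 5′ to 3′ from 250 bases before to 50 after a RefSeq start (GRCm38.p6). The windows lie at chr10:127522395-127522694 on the minus strand for Shmt2, chr7:30493408-30493707 on the plus strand for Prodh2 and chr5:123182674-123182973 on the minus strand for Hpd. The Prodh2 gene as listed begins at base 30493586, upstream of the start used for its window. Positions of matches count from the start used for the window. Capitals mark matches, on either strand, to the HNF1 letters GTTAAT or to the STAT (GAS) letters TTCNNNGAA.
Shmt2: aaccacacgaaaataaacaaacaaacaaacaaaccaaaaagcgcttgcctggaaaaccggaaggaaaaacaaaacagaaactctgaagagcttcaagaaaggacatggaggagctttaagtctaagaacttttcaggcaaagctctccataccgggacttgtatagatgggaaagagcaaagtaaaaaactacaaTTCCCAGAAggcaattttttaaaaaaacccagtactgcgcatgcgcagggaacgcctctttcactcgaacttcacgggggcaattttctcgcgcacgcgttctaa
Prodh2: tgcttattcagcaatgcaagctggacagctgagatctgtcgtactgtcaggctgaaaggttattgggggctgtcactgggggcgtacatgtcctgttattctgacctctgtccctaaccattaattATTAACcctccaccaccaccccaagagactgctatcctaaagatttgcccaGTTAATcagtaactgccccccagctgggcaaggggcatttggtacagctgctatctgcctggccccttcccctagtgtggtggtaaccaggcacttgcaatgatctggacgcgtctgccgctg
Hpd: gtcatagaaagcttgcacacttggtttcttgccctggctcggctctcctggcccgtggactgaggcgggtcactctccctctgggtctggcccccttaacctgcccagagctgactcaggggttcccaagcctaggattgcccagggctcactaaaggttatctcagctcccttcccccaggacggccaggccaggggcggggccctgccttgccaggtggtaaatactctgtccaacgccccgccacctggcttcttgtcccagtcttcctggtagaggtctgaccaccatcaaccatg
The Shmt2 window holds 1 GAS match at -55 from the start, and the Prodh2 window holds 2 HNF1 matches, at -124 and -73. Neither motif was found in the Hpd window. RefSeq windows were found for 35 of the 40 members. Of these 35 genes 5 held a GAS match, against 9.55% of all 27025 genes with a window, and 3 held an HNF1 match, against 8.24%. The letters CAAAGTCCA (HNF4) and TGATGNAA (amino acid response element) were searched in the same way and were in no member window, against 0.555% and 4.51% of all genes. These are matches of letters in a short window, and no binding was measured.

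Most of the enzymes were lower in both mutants than in wild type once sex was in the fit. In that fit 26 of 35 tested members fell in double mutants and 25 fell in single mutants, and none rose. Over all 7145 tested genes, 17.8% fell and 6.4% rose in double mutants (24.2% called in all), and 19.9% fell and 7.31% rose in single mutants (27.2% in all). The median difference of the members was -1.28 in double and -1.29 in single mutants, against medians of -0.15 and -0.15 over all genes. All 25 members called in single mutants were also called in double mutants, where Bckdha was called in addition. Both comparisons use the same wild type arrays, both male, and a sex effect estimated in the mutants and taken as equal in them. On the male arrays alone the median of the members was -0.90 in the double and -1.51 in the single mutant. Over all genes it was -0.17 and -0.12 there.

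Without the term for sex no member was called. In limma, 0 of 35 members passed in double mutants and 0 in single mutants, against 0.084% of all genes in double mutants (0.056% higher, 0.028% lower) and 0.028% in single mutants (0.014% higher, 0.014% lower). An unadjusted p under 0.05 was found for 16 members in double mutants, against 21.6% of all genes, and for 14 in single mutants, against 23.2%. The median difference of the members was -0.77 in double and -0.75 in single mutants in that fit, against -0.08 and -0.07 over all genes. Differences below 0 were found for 30 members in double mutants (59.2% of all genes) and 32 in single mutants (57.2%).

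The values themselves show how the arrays lie. On 20 of 35 members all 6 mutant arrays were below both wild type arrays, a pattern held by 21.4% of all tested genes. A wild type array was the highest of the 8 on 24 members, against 40.1% of all genes, and single mutant 2 was the lowest on 25, against 25.4%. All double mutants were below wild type on 26 members, against 28.8% of all genes, and all single mutants on 22, against 29.1%. Among single animals, the male double mutant was below both wild type arrays on 30 members (57.5% of all genes) and the male single mutant on 34 (52.7%). Female arrays were low too. Both female double mutants were below wild type on 27 members (32.8% of all genes) and both female single mutants on 22 (32.5%).

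**Figure D1:**
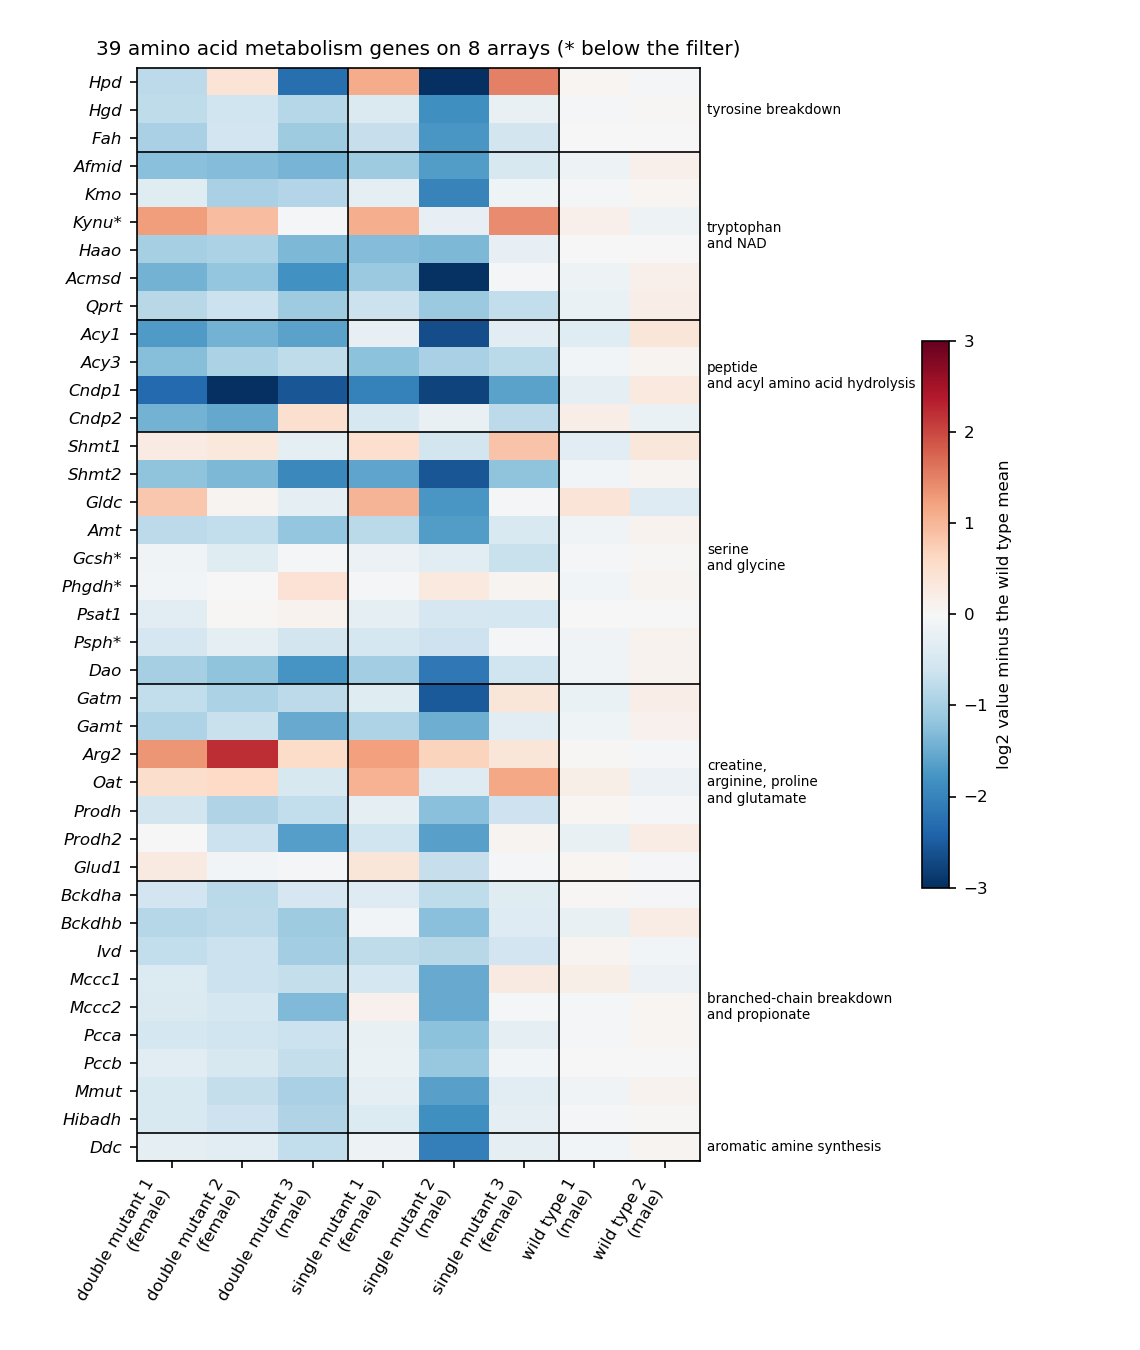
Each row is 1 of the 39 measured members, ordered by role, and each column is 1 array, with the sex read from the array. Colour gives the log2 value minus the mean of the 2 wild type arrays. Single mutant 2, a male, is the lowest array on 25 of 35 tested members, and Arg2 is above wild type on every mutant array.

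The calls rest on few arrays, and single mutant 2 and the wild type arrays move them most. Without single mutant 2 none of the 25 single mutant calls held (adjusted p of at least 0.0583), as 0% of all genes were then called in single mutants, and the median was -0.65. Of the 26 double mutant calls 21 held, with 16.3% of all genes called. Without wild type 2 only Shmt2 held, with 0.98% of all genes called in double and 0.924% in single mutants. Without wild type 1 there were 13 calls in double and 14 in single mutants, with 12.2% and 16.2% of all genes called. In the fit of genotype alone, leaving out single mutant 2 gave 17 members lower in double mutants, against 4.17% of all genes. Fitting the double mutant and wild type arrays alone gave 10, against 2.11%. In these data fewer cells of a type and less RNA per cell cannot be told apart.

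The 3 measured enzymes of tyrosine breakdown all fell in both mutants in the fit with sex. Of all tested genes 17.8% fell in double and 19.9% in single mutants. Hpd, the dioxygenase that makes homogentisate, measured 8.98, 10.19 and 7.51 in the double mutants, 10.88, 6.43 and 11.28 in the single mutants, and 9.82 and 9.72 in wild type. Its values spread with sex, since the male single mutant and male double mutant were the lowest and both female single mutants were above wild type. In the fit with sex it differed from wild type by -3.12 in double mutants (SE 0.69, adjusted p = 0.02) and -2.48 in single mutants (SE 0.69, adjusted p = 0.0353), and without sex by -0.88 and -0.24, neither past the test.

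Hgd, which opens the ring of homogentisate, measured 10.49, 10.65 and 10.39 in the double mutants, 10.81, 9.41 and 11.03 in the single mutants, and 11.22 and 11.29 in wild type. Every mutant array was below both wild type arrays, single mutant 2 furthest. In the fit with sex Hgd differed by -1.31 in double and -1.40 in single mutants. On the male arrays alone it differed by -0.86 in the double and -1.84 in the single mutant. Fah, the last enzyme of the chain, whose loss causes tyrosinemia, measured 9.48, 9.90 and 9.39 in the double mutants, 9.78, 8.72 and 9.90 in the single mutants, and 10.47 and 10.45 in wild type. Here too all 6 mutant arrays were below wild type, with differences of -1.34 in double mutants (SE 0.25, adjusted p = 0.0137) and -1.47 in single mutants (SE 0.25, adjusted p = 0.0106).

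All 5 tested enzymes on the way from tryptophan to NAD fell in both mutants in the fit with sex. The shares of all tested genes were 17.8% in double and 19.9% in single mutants. Afmid, which releases kynurenine, measured 7.83, 7.78 and 7.68 in the double mutants, 8.0, 7.40 and 8.60 in the single mutants, and 8.92 and 9.23 in wild type. The double mutants lay within a narrow range below every wild type value, and the difference was -1.65 in double mutants (SE 0.28, adjusted p = 0.0114) and -1.41 in single mutants (SE 0.28, adjusted p = 0.0146). Haao, which makes the unstable precursor of quinolinate, measured 8.74, 8.79 and 8.40 in the double mutants, 8.44, 8.38 and 9.48 in the single mutants, and 9.73 and 9.75 in wild type. All 6 mutants were below wild type, single mutant 3 coming closest. The difference was -1.41 in double and -1.29 in single mutants.

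Acmsd diverts that precursor away from NAD, while Qprt uses quinolinate on the way to NAD, and both were lower. Acmsd measured 8.59, 8.85 and 8.17 in the double mutants, 8.90, 7.04 and 9.96 in the single mutants, and 9.85 and 10.15 in wild type. Single mutant 3 lay within the wild type range and single mutant 2 was the lowest array. In the fit with sex it differed by -2.44 in double and -2.34 in single mutants, a 5.42-fold and a 5.06-fold decrease in that fit. On the male arrays alone Acmsd differed by -1.82 in the double and -2.95 in the single mutant. Qprt measured 6.70, 6.89 and 6.46 in the double mutants, 6.90, 6.42 and 6.81 in the single mutants, and 7.34 and 7.73 in wild type, with every mutant below wild type, and differed by -1.10 in double and -1.08 in single mutants. Kmo, the mitochondrial kynurenine hydroxylase, measured 9.14, 8.54 and 8.62 in the double mutants, 9.22, 7.49 and 9.37 in the single mutants, and 9.44 and 9.56 in wild type. It was only slightly below wild type in the female single mutants and was called at -1.41 in double and -1.48 in single mutants.

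Kynu, the kynureninase, did not follow this order and was too dim to be tested. It measured 6.31, 5.97 and 5.0 in the double mutants, 6.14, 4.80 and 6.46 in the single mutants, and 5.21 and 4.90 in wild type. All 4 female arrays were above all 4 male arrays, and the male mutants lay near wild type.

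The peptidases held the largest difference of the members in the fit of genotype alone. Cndp1, a dipeptidase that splits carnosine and related peptides, had means of 7.26 ± 0.34 in double mutants, 7.76 ± 0.59 in single mutants (SD, n = 3 each) and 9.89 ± 0.41 in wild type (SD, n = 2). On single arrays it measured 7.57, 6.90 and 7.32 in the double mutants, 7.87, 7.12 and 8.28 in the single mutants, and 9.60 and 10.18 in wild type. No mutant array, female or male, came within 1 log2 unit of wild type. The difference was -2.92 in double mutants (SE 0.38, adjusted p = 0.00765) and -2.42 in single mutants (SE 0.38, adjusted p = 0.00927) in the fit with sex. Without sex it was -2.63 and -2.13 and did not pass (adjusted p = 0.0556 and 0.0682), and without single mutant 2 the double mutant passed in that fit (adjusted p = 0.00369).

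Its relative Cndp2, a dipeptidase of wider substrate range, measured 8.46, 8.33 and 10.34 in the double mutants, 9.39, 9.63 and 9.07 in the single mutants, and 10.06 and 9.67 in wild type. Both female double mutants were low, and the male double mutant was the highest of the 8 arrays. In the fit with sex its difference from wild type was -0.04 in double and 0.28 in single mutants, and neither passed. Without sex it was -0.82 and -0.50, the sign turning in single mutants, and array weights then called the double mutant lower at -1.28 (adjusted p = 0.0355). The difference between females and males was -1.17 (adjusted p = 0.0577), which also missed the threshold, though it passed with quantile normalization, with the replicate block and without single mutant 1 or 2.

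The aminoacylases release free amino acids from their acetylated forms. Acy1 measured 8.25, 8.53 and 8.34 in the double mutants, 9.70, 7.28 and 9.60 in the single mutants, and 9.58 and 10.30 in wild type. All 3 double mutants and single mutant 2 were far below wild type, while both female single mutants lay at the lower wild type value. It was called at -2.38 in double mutants (SE 0.58, adjusted p = 0.0262) and -1.89 in single mutants (SE 0.58, adjusted p = 0.0477). Acy3, which acts on acetylated aromatic amino acids and mercapturates, measured 11.48, 11.81 and 12 in the double mutants, 11.55, 11.80 and 11.97 in the single mutants, and 12.69 and 12.84 in wild type. Every mutant was below wild type by a similar amount, in females as in males, and the difference of -0.87 in double and -0.86 in single mutants with sex was close to the -1.0 and -1.0 without it.

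In serine and glycine metabolism the mitochondrial Shmt2 fell most, while its cytosolic counterpart did not pass the test. Shmt2 had means of 9.56 ± 0.38 in double mutants, 9.26 ± 0.70 in single mutants (SD, n = 3 each) and 11.05 ± 0.12 in wild type (SD, n = 2). It measured 9.85, 9.70 and 9.12 in the double mutants, 9.47, 8.47 and 9.84 in the single mutants, and 10.96 and 11.13 in wild type, so that the highest mutant lay more than 1 log2 unit below wild type. The difference was -2.10 in double mutants (SE 0.21, adjusted p = 0.00407) and -2.40 in single mutants (SE 0.21, adjusted p = 0.00531), a 4.29-fold and a 5.27-fold decrease. Shmt1, the cytosolic enzyme, measured 7.84, 7.91 and 7.28 in the double mutants, 8.10, 7.03 and 8.45 in the single mutants, and 7.24 and 7.93 in wild type. Both female double mutants lay between the 2 wild type arrays and both female single mutants above them, and the difference of -0.52 in double and -0.34 in single mutants in the fit with sex did not pass. Without sex it turned sign, at 0.09 and 0.27.

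Of the glycine cleavage system, Amt, the folate-dependent T protein, fell and Gldc, the decarboxylase, did not pass. Amt measured 7.65, 7.70 and 7.27 in the double mutants, 7.62, 6.76 and 7.99 in the single mutants, and 8.34 and 8.53 in wild type, with all mutants below wild type, and differed by -1.38 in double mutants (SE 0.22, adjusted p = 0.0112) and -1.47 in single mutants (SE 0.22, adjusted p = 0.00877). Gldc measured 9.76, 9.02 and 8.67 in the double mutants, 9.97, 7.2 and 8.90 in the single mutants, and 9.33 and 8.55 in wild type. Its highest and lowest arrays were both single mutants, and its difference was -0.78 in double and -1.23 in single mutants in the fit with sex. Without sex it was 0.20 and -0.25, so the double mutant value turned sign. Gcsh, the lipoyl carrier protein of the system, was below the filter and measured 6.58, 6.33 and 6.63 in the double mutants, 6.49, 6.36 and 6.01 in the single mutants, and 6.63 and 6.73 in wild type.

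Dao, the peroxisomal oxidase of D-serine and other D-amino acids, measured 9.85, 9.63 and 9.08 in the double mutants, 9.81, 8.70 and 10.25 in the single mutants, and 10.73 and 10.96 in wild type. All 6 mutants were below wild type and the 2 male mutants were the lowest, and it differed by -1.99 in double mutants (SE 0.25, adjusted p = 0.00694) and -1.92 in single mutants (SE 0.25, adjusted p = 0.00735). The enzymes that make serine from a glycolytic intermediate showed small differences. Psat1, the aminotransferase of that route, measured 6.64, 6.99 and 7.05 in the double mutants, 6.67, 6.45 and 6.42 in the single mutants, and 6.96 and 6.94 in wild type, and its difference of -0.01 in double and -0.39 in single mutants did not pass. Phgdh, the first enzyme of the route, was below the filter and lay between 5.35 and 5.87 on all arrays. Psph, the last, was below it as well and lay between 5.78 and 6.5.

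In creatine synthesis the second enzyme passed the test, and the first, with a difference of similar size, did not. Gamt, which methylates guanidinoacetate, measured 6.83, 7.09 and 6.25 in the double mutants, 6.85, 6.30 and 7.45 in the single mutants, and 7.63 and 7.90 in wild type. All mutants were below wild type, and it differed by -1.57 in double mutants (SE 0.23, adjusted p = 0.0108) and -1.42 in single mutants (SE 0.23, adjusted p = 0.01). Gatm, the first and regulated enzyme, measured 9.12, 8.90 and 9.06 in the double mutants, 9.49, 7.32 and 10.22 in the single mutants, and 9.64 and 10.05 in wild type. Single mutant 2 was more than 1 log2 unit below every other array, and single mutant 3 was above wild type. Its difference of -1.65 in double and -1.67 in single mutants did not pass (adjusted p = 0.093 and 0.0875).

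The enzymes of proline oxidation fell and those of arginine and ornithine did not. Prodh measured 9.11, 8.78 and 8.93 in the double mutants, 9.41, 8.42 and 9.04 in the single mutants, and 9.73 and 9.61 in wild type, all mutants being below wild type, and differed by -1.0 in double and -0.98 in single mutants. Prodh2, which oxidizes hydroxyproline, measured 8.41, 7.77 and 6.78 in the double mutants, 7.82, 6.79 and 8.51 in the single mutants, and 8.2 and 8.65 in wild type. The 2 male mutants were lowest and nearly equal, and it differed by -1.67 in double mutants (SE 0.31, adjusted p = 0.0138) and -1.61 in single mutants (SE 0.31, adjusted p = 0.0134). Glud1, the glutamate dehydrogenase, measured 11.06, 10.72 and 10.74 in the double mutants, 11.16, 10.11 and 10.74 in the single mutants, and 10.85 and 10.75 in wild type, and its difference of -0.29 in double and -0.46 in single mutants with sex and 0.04 and -0.13 without it did not pass.

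Arg2, the mitochondrial arginase of the kidney, had the highest difference from wild type among tested members in either fit. It measured 8.34, 9.22 and 7.56 in the double mutants, 8.25, 7.69 and 7.37 in the single mutants, and 7.05 and 6.98 in wild type. All 6 mutants were above both wild type arrays, single mutant 3 coming closest. Arg2 was the only tested member whose mutants all lay above wild type, a position held by 17.4% of all genes for double mutants and 19.3% for single mutants. The differences of 0.91 in double and 0.31 in single mutants with sex and 1.36 and 0.76 without it did not pass (adjusted p = 0.143 and 0.32 without sex). Arg2 was called higher in double mutants with the replicate block in the fit with sex, at 1.22 (adjusted p = 0.0413), and with array weights without sex, at 1.68 (adjusted p = 0.0173). Oat, the ornithine aminotransferase, measured 9.76, 9.84 and 8.76 in the double mutants, 10.28, 8.84 and 10.39 in the single mutants, and 9.42 and 9.05 in wild type. All 4 females were above all 4 males, and its difference from wild type was -0.63 in double and -0.24 in single mutants in the fit with sex and 0.22 and 0.60 without it, none of which passed.

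Most enzymes of branched-chain breakdown fell. Of 9 tested enzymes 8 fell in double mutants and 7 in single mutants in the fit with sex, with medians of -1.11 and -1.0. Over all tested genes 17.8% and 19.9% fell, with medians of -0.15 and -0.15. Ivd, which dehydrogenates isovaleryl-CoA from leucine, measured 9.01, 9.09 and 8.70 in the double mutants, 8.97, 8.90 and 9.17 in the single mutants, and 9.82 and 9.66 in wild type. All 6 mutants were below wild type, and the 2 male mutants were the lowest. The difference was -0.98 in double mutants (SE 0.15, adjusted p = 0.0108) and -0.89 in single mutants (SE 0.15, adjusted p = 0.0101), and -0.81 and -0.72 without sex.

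The branched-chain ketoacid dehydrogenase was read from both subunits of its first component. Bckdha measured 8.88, 8.65 and 8.95 in the double mutants, 9.07, 8.69 and 9.09 in the single mutants, and 9.49 and 9.41 in wild type. Bckdhb measured 7.67, 7.74 and 7.46 in the double mutants, 8.43, 7.27 and 8.13 in the single mutants, and 8.29 and 8.75 in wild type. Both were below wild type in every double mutant. Bckdhb was called at -1.31 in double and -1.0 in single mutants, and Bckdha was called in double mutants only, at -0.69 (adjusted p = 0.0382) against -0.57 (adjusted p = 0.0622) in single mutants, and the difference between the mutants was -0.12 (adjusted p = 0.995).

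Leucine goes on through the 2 subunits of methylcrotonyl-CoA carboxylase. Mccc2 measured 8.78, 8.68 and 7.89 in the double mutants, 9.35, 7.71 and 9.19 in the single mutants, and 9.16 and 9.28 in wild type. The female single mutants lay at wild type values and the male mutants were lowest, and it was called at -1.57 in double and -1.27 in single mutants. Mccc1 measured 8.38, 8.15 and 8.07 in the double mutants, 8.27, 7.28 and 9.06 in the single mutants, and 8.97 and 8.61 in wild type, spread more widely among single mutants, and did not pass at -1.11 in double and -1.11 in single mutants. Hibadh, of valine breakdown, measured 10.69, 10.52 and 10.24 in the double mutants, 10.73, 9.30 and 10.84 in the single mutants, and 11.11 and 11.17 in wild type and differed by -1.27 in double and -1.47 in single mutants.

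Propionyl-CoA from valine and isoleucine is carboxylated by Pcca and Pccb and then rearranged by Mmut, listed as Mut. Pcca measured 9.22, 9.16 and 9.11 in the double mutants, 9.54, 8.52 and 9.48 in the single mutants, and 9.70 and 9.81 in wild type. Pccb measured 9.64, 9.48 and 9.24 in the double mutants, 9.75, 8.82 and 9.87 in the single mutants, and 9.95 and 9.95 in wild type. Mmut measured 9.67, 9.42 and 9.15 in the double mutants, 9.84, 8.49 and 9.78 in the single mutants, and 10.02 and 10.23 in wild type. In all 3 every mutant array was below wild type. The differences were -0.95 in double and -0.93 in single mutants for Pcca, -0.93 in double and -0.91 in single mutants for Pccb and -1.28 in double and -1.32 in single mutants for Mmut, all past the test in the fit with sex. Ddc, the decarboxylase that makes dopamine in proximal tubule cells, measured 7.5, 7.44 and 7.03 in the double mutants, 7.63, 5.71 and 7.51 in the single mutants, and 7.68 and 7.87 in wild type. Single mutant 2 was more than 1 log2 unit below every other array, and Ddc was called at -1.22 in double and -1.59 in single mutants.

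**Figure D2:**
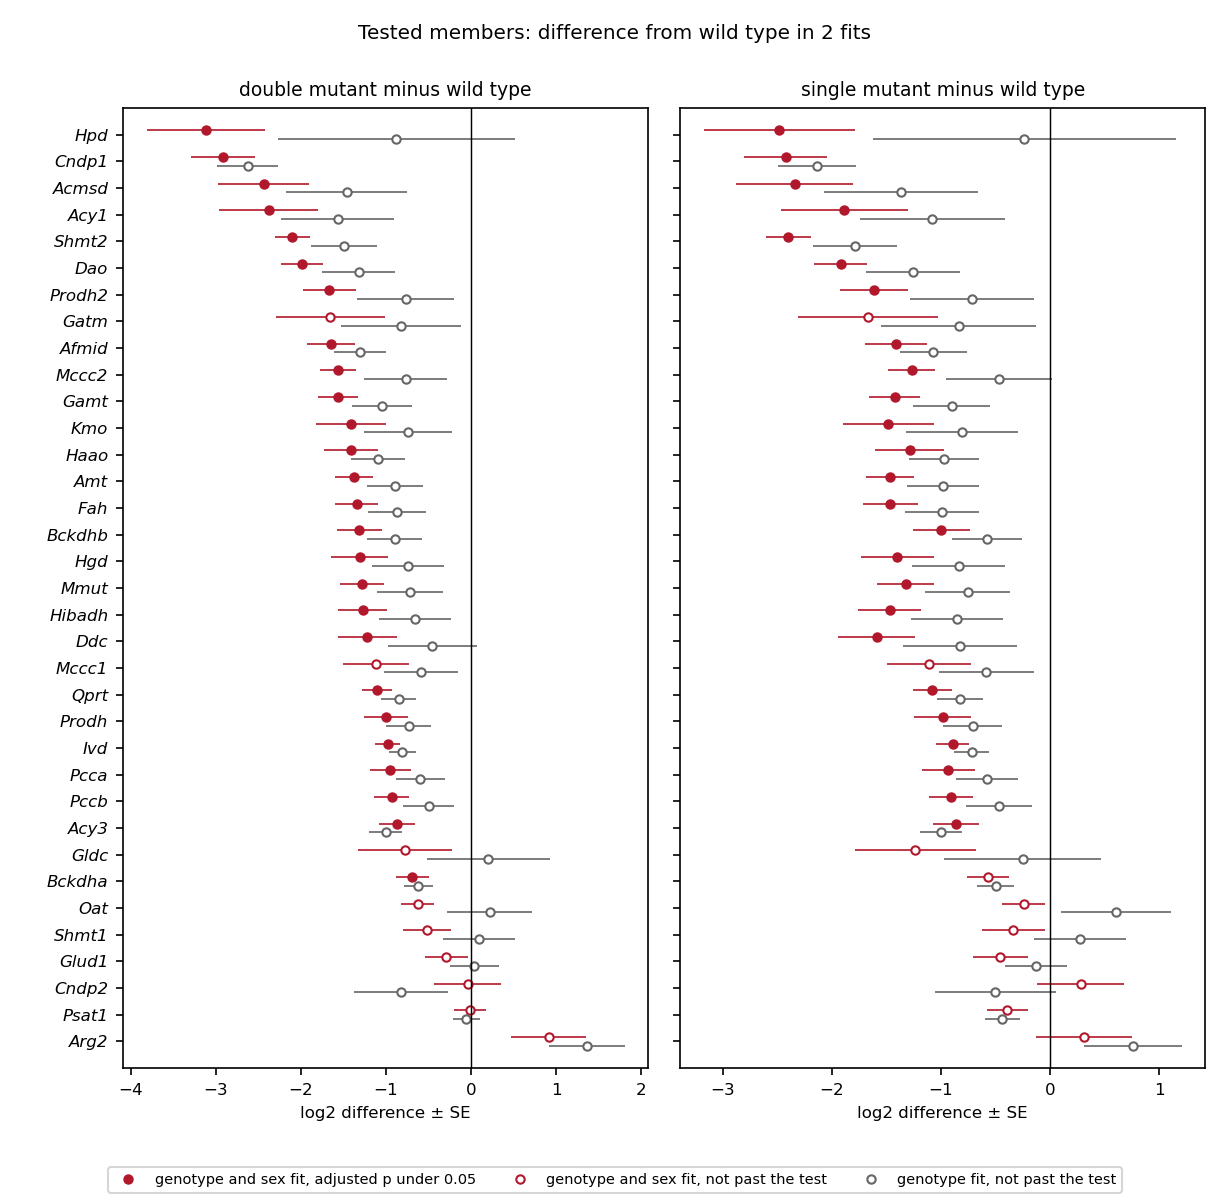
Points are log2 differences from wild type with their SE for the 35 tested members, in double mutants (left) and single mutants (right), from the fit of genotype and sex (red) and from genotype alone (grey); filled points passed an adjusted p of 0.05. Filled points are all on the left of 0 and all red, 26 in double and 25 in single mutants, and Arg2 lies furthest to the right.

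Females and males differed in many of the enzymes. In the fit with sex 13 of 35 members were higher in female than in male mutants and none was lower, against 8.22% and 1.97% of all genes (10.2% in all). The median of the members was 0.78 against 0.09 over all genes, and 32 of 35 were above 0. Of the 13 members, 11 were also called lower in a mutant, and the other 2 were Oat and Shmt1. Markers of cell types differed too. Of 10 proximal tubule markers 9 were above 0 (median 0.71, 3 called higher). This was not limited to the proximal tubule. All 6 collecting duct markers were above 0 (median 0.85, 3 called higher). The 5 tested loop and distal tubule markers (median 0.54, 2 called higher) and 2 tested podocyte markers (median 0.64, 1 called higher) were above 0 too. All 7 macrophage markers were below 0 (median -0.67, none called). All 6 tubule injury markers were below 0 (median -0.84, 2 called lower). Their part in the sex difference was not tested. This sex effect is known only in mutants, since no wild type female was measured, and each mutant group holds 1 male.

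Hpd had the largest sex difference at 3.36 (SE 0.56, adjusted p = 0.0145), a 10.3-fold higher level in females. Prodh2 followed among the called members at 1.34 (adjusted p = 0.0205), and Oat at 1.27 (adjusted p = 0.00669). Mccc2 was higher in females by 1.20 and Ddc by 1.15. Shmt1 and Shmt2 were both higher in females, by 0.91 and 0.91. The remaining called members were Dao at 1.0, Hibadh at 0.93, Mmut at 0.86, Gamt at 0.78, Amt at 0.73 and Pccb at 0.65. Ivd at 0.26, Acy3 at -0.20 and Bckdha at 0.10 had small sex differences that did not pass.

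These calls also rest on single arrays. Without single mutant 2 none of the 13 held (differences from 0.32 to 2.07), with 1.95% of all genes called. Cndp2 was called lower in females instead, at -1.95 (adjusted p = 0.0215). There were 4 calls without double mutant 1 (4.02% of all genes) and 21 without double mutant 3 (9.78%). There were 8 calls without single mutant 1 (8.03%) and 5 without single mutant 3 (3.28%). Quantile normalization gave 7 members higher and Cndp2 lower, with 9.35% of all genes called.

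**Figure D3:**
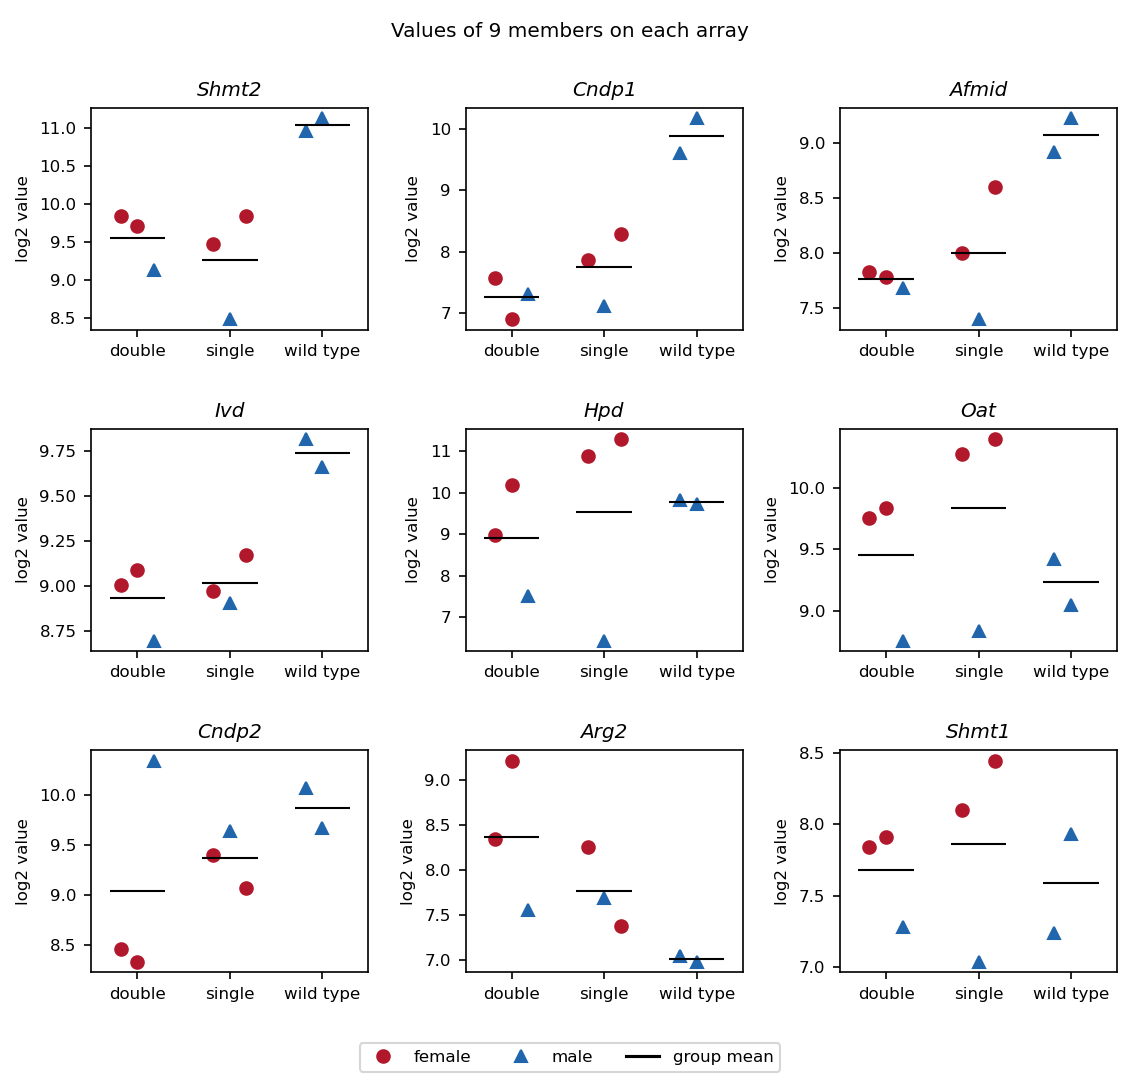
Each panel gives the log2 values of 1 member on the 8 arrays by group, with females as red circles, males as blue triangles and group means as black lines. Shmt2, Cndp1, Afmid and Ivd are below wild type in every mutant, Hpd and Oat separate females from males among mutants, and Arg2 is above wild type in every mutant.

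The double mutant was set against the single mutant to ask how these enzymes stand in an Alport kidney without osteopontin. No member passed the test between them. In limma 0 of 35 members passed with or without sex, against 0% of all genes either way. No member had groups that did not overlap, against 2.02% of all genes higher and 3% lower in double mutants. An unadjusted p under 0.05 was found for 1 member without sex, against 1.46% of all genes, and for 2 with sex, against 3.82%. The median difference of the members was -0.02 against 0.00 over all genes, with 22 of 35 below 0, against 49.6% of all genes. The largest differences between the mutants in size were -0.64 for Hpd, 0.60 for Arg2, -0.49 for Cndp1, -0.49 for Acy1 and 0.46 for Gldc.

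The direction was not shared by the sexes. The male double mutant was above the male single mutant on 30 of 35 members, against 43.7% of all genes, with a median of 0.52. Both female double mutants were below both female single mutants on 19 of 35 members, against 18.4% of all genes, and above them on 1, against 22.5%, with a median of -0.28. Gatm was 1.73 higher in the male double mutant and 0.85 lower in the female double mutants. The difference between the sexes in this contrast was tested as an interaction over 5 cells of genotype and sex. The fit with sex takes this interaction as 0. Differences from wild type and between sexes in that fit are less certain for members whose interaction lies far from 0. No member passed in limma, against 0% of all genes, and 17 of 35 had an unadjusted p under 0.05, against 12.8% of all genes. The interaction was below 0 on 33 of 35 members, against 42.7% of all genes, with a median of -0.77. Of the proximal tubule markers all 10 were below 0 as well (median -0.92), while all 7 macrophage markers (1.69) and all 6 matrix markers (1.76) were above 0. Their part in this pattern was not tested. The smallest adjusted p among members was 0.0591 for Ddc, followed by 0.071 for Gatm. The male values are 1 mouse against 1 mouse.

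Other enzymes of amino acid metabolism, 85 genes outside the 40, were read from 8 lists, of which 3 (lysine, histidine, methionine and cysteine) cover pathways without members. Of these 76 were measured and 50 tested. In the fit with sex 42 fell in double mutants and 38 in single mutants, and none rose, with medians of -1.11 and -1.01. Over all tested genes 17.8% fell in double and 19.9% in single mutants, 6.4% and 7.31% rose, and the medians were -0.15 and -0.15. Without sex limma called 0 in either mutant, against 0.084% and 0.028% of all genes. In double mutants 19 had an unadjusted p under 0.05, and 17 did in single mutants, against 21.6% and 23.2% of all genes. The medians were -0.62 and -0.65, against -0.08 and -0.07. All 14 tested branched-chain enzymes outside the members fell in double mutants and 12 in single mutants, such as Dbt, the core of the ketoacid dehydrogenase, at -1.49 in double and -1.37 in single mutants. All 4 enzymes of lysine breakdown fell in both, such as Aldh7a1 at -1.33 in double and -1.47 in single mutants.

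In the methionine and cysteine list 5 of 7 fell in double mutants and 4 in single mutants. Cth and Cbs, which carry sulfur from homocysteine to cysteine, differed by -1.96 in double and -2.05 in single mutants for Cth and -1.61 in double and -1.57 in single mutants for Cbs. Of 9 further glycine and one-carbon enzymes 8 fell in each mutant, such as the dimethylglycine dehydrogenase Dmgdh at -1.73 in double and -1.33 in single mutants. Of 6 tryptophan and NAD enzymes 5 fell in each, Aldh8a1 most at -1.89 in double and -2.34 in single mutants. Of 7 arginine, proline and glutamate enzymes 4 fell in each, such as the argininosuccinate lyase Asl at -1.12 in double and -1.13 in single mutants. Of 2 phenylalanine and tyrosine enzymes both fell in double mutants and Pcbd1 alone in single mutants, at -1.52 in double and -1.64 in single mutants. Uroc1, the only tested enzyme of histidine breakdown, did not pass against wild type.

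Markers of cell types moved along with the members. The mean of the 35 tested members lay between 8.49 and 8.84 in double mutants, 7.94 and 9.23 in single mutants, and 9.40 and 9.50 in wild type. The mean of the 10 proximal tubule markers lay between 10.79 and 11.09 in double mutants, 9.98 and 11.35 in single mutants, and 11.46 and 11.47 in wild type. In both lists single mutant 2 was lowest and wild type highest. In the fit with sex the proximal tubule markers had medians of -1.14 in double and -1.11 in single mutants, with 5 and 6 of 10 called lower, close to the medians of the members. Without sex their medians were -0.51 and -0.50, against -0.77 and -0.75 of the members. In the fit with sex some markers of other tubule segments were also called lower in double mutants. These were 3 of 6 collecting duct markers (list median -0.93) and 2 of 5 loop and distal tubule markers (list median -0.42). In single mutants 1 and 2 markers of these lists were called lower, with medians of -0.48 and -0.11. Over all tested genes 17.8% were called lower in double and 19.9% in single mutants. The list means of the double mutant arrays did not all lie below wild type. The collecting duct mean reached 8.33 in double mutant 2, against 8.13 on both wild type arrays. The loop and distal tubule mean reached 10.67 in double mutant 1, against at most 10.56 in wild type. In both lists the male double mutant was the lowest of the 8 arrays.

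Markers of macrophages and matrix moved the other way. The mean of 10 macrophage markers lay between 7.99 and 8.37 in double mutants, 7.17 and 8.69 in single mutants, and 6.25 and 6.43 in wild type, with 7 of 10 above the filter and 6 of those 7 called higher in each mutant in the fit with sex. The mean of 8 fibroblast and matrix markers lay between 8.33 and 8.77 in double mutants, 7.65 and 9.16 in single mutants, and 6.64 and 6.75 in wild type, with 4 of 6 tested called higher in each. Over all tested genes 6.4% were called higher in double and 7.31% in single mutants. Single mutant 2 was highest in both lists. The mean of 6 tubule injury markers lay between 8.38 and 9.57 in double mutants, 7.93 and 9.17 in single mutants, and 6.76 and 7.17 in wild type. The part of these markers in the lower values of the enzymes was not tested.

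**Figure D4:**
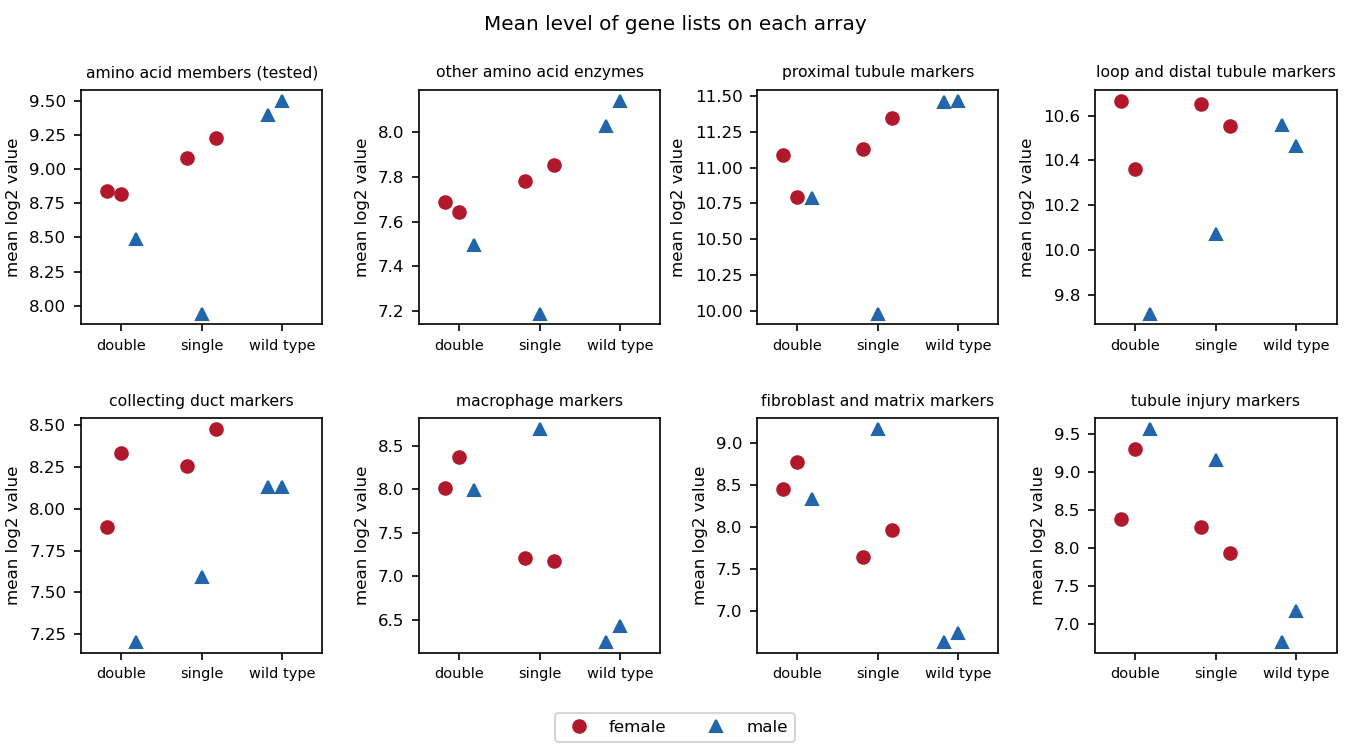
Each panel gives the mean log2 value of a gene list on each array by group, with females as red circles and males as blue triangles. The amino acid enzymes and the proximal tubule markers are highest in wild type and lowest in single mutant 2, where the macrophage and matrix markers are highest.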

How the data were processed

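The deposited values are log2 expression values, 1 for each probe set and array, from 4.20 to 13.43. The unit was read from this range. The sources used here do not name the authors' normalization. Per the labels' protocols the RNA was labelled with a kit commonly used for small RNAs. The table holds 33793 probe sets, of which 23521 name 1 gene. Genes were read from their brightest probe set and tested where the mean exceeded the 75th percentile of all probe sets (6.64), which left 7145 of 22180 genes. Groups were compared with limma 3.58.1 in R 4.3.3 in 1 model of 3 groups (5 residual degrees of freedom), and again with sex (4). P-values are two-sided and Benjamini-Hochberg adjusted across the 7145 genes, with calls under 0.05. The fit was tested on simulated data. Values of all members called in a comparison, and of the others with large differences, are given on every array. The members, lists and tests were chosen with earlier results of these data known. Replicates are separate mice per the labels' counts. Alternatives covered the filter, the normalization, array weights, the prior, the probe set rule, the replicate block and leaving out each array. The osteopontin gene is not reported here. Plots were drawn with matplotlib 3.10.9.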

Additional observations from a re-analysis of the deposited data

How the results depend on the processing

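All 64 calls of single members came from the fit with sex. Over 16 alternatives they kept their direction in each of 1024 recomputed values, and 753 of these passed the test. The alternatives reuse most of the same arrays, so a kept direction was likely beforehand. Without single mutant 2 none of the 25 single mutant calls and none of the 13 sex calls held. The following counts and medians moved. With no filter on dim genes, the fit with sex called 11 members in double mutants, 12 in single mutants and 3 for sex (6.25%, 6.91% and 1.49% of all genes). Sex calls came to 7 with a filter at the 50th percentile, 8 with quantile normalization and 3 with array weights (5.54%, 9.35% and 2.88% of all genes). Without the term for sex, array weights called 18 members in double mutants (Arg2 the only one higher) and 9 in single mutants (17.8% and 11.3% of all genes), and the 2 groups alone called 10 in double mutants. In males alone the median was -0.90 in the double mutant and -1.51 in the single mutant. Leaving out 1 array at a time gave, in the fit with sex, 1 to 29 calls in double mutants (0.98% to 22.9% of all genes), 0 to 29 in single mutants (0% to 30%) and 1 to 21 for sex (1.95% to 9.78%), with medians from -1.81 to -0.90 in double and from -1.51 to -0.65 in single mutants. Without sex it gave 0 to 17 calls in double (0% to 8.26%) and 0 in single mutants. Between the mutants it gave 0 calls, with medians from -0.28 to 0.11 with sex and -0.36 to 0.23 without. With the replicate number as a block, the fit with sex called 30 members in double mutants (Arg2 the only one higher), 27 in single mutants and 19 for sex (Cndp2 the only one lower), with 25.6%, 27.7% and 9.95% of all genes, and the fit without sex 0. Same-numbered arrays correlated between -0.58 and 0.26 in their deviations from group means, and arrays with different numbers between -0.45 and 0.54. These deviations were not adjusted for sex, so they cannot decide whether the numbers pair the samples. Over all genes, quantile normalization moved the median in single mutants in the fit with sex to -0.04 and the calls to 811 higher and 1043 lower, against 522 and 1424, and the members called there to 19. It gave 671 higher and 890 lower in double mutants, against 457 and 1271, and 436 higher and 232 lower in females, against 587 and 141. The cause of these shifts was not tested. With 2 wild type arrays and 1 male in each mutant group, the number of arrays limits every value.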
